A study of Sus scrofa with 44 samples.

Results

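The genes described are those for the proteins of the cytosolic ribosome in pig, followed in fetal back muscle by expression and by N6-methyladenosine (m6A) peaks. Members were chosen by symbol alone, as RPL or RPS with a number and an optional A, X, L or L1, together with RPLP0, RPLP1, RPLP2 and RPSA. Mitochondrial ribosomal proteins and the RPS6K kinases were left out. Of 56 such symbols in the table of Ensembl identifiers, 50 had an identifier in the expression files, which list 22427 genes. These 50 were 25 for the large and 25 for the small ribosomal subunit. RPL10L and RPS29 were listed at 0 in every library, and 48 members passed the filter of a mean of at least 1 TPM, a measure of transcripts per length scaled to a fixed total in each library. RPL13A, RPL22, RPL36, RPS10, RPS14 and RPS26 had no identifier in the expression files. They entered only the counts over all RefSeq members, of start sequences and of peaks by position. A further 26 symbols of the rule appear in the RefSeq annotation without a paired Ensembl identifier, RPS6 and RPL15 among them. These 26 likewise entered only those counts.

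The study profiled the longissimus dorsi, a muscle along the back, of fetuses aged 33 (E33), 40 (E40), 50 (E50), 60 (E60), 70 (E70) and 95 (E95) days after mating. Each stage had 3 input and 3 immunoprecipitated samples of rRNA-depleted RNA, the latter enriched with an antibody against m6A, in an assay known as MeRIP-seq. The kidney line PK15 was added with 2 input and 2 immunoprecipitated samples of polyA RNA and the same numbers of rRNA-depleted RNA. Expression values covered the 18 muscle input libraries, and peaks came as 1 list for each stage and for each PK15 preparation. The labels give no strain, sex or litter, and do not say that replicates came from separate animals. P-values therefore measure only the spread between these samples, which may be technical.

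The ribosome joins a large subunit, which forms peptide bonds, to a small subunit, which reads the messenger RNA, and cells need near-equal numbers of each of their proteins. Messenger RNAs for these proteins are short and abundant. Many begin with a C and a run of pyrimidines, the 5' terminal oligopyrimidine (TOP) tract, through which the kinase mTOR adjusts their translation to nutrients and growth. A few members have paralogs with tissue-bound expression, of which RPL3L, the muscle and heart counterpart of RPL3, is the best known. m6A is an internal mark of messenger RNA, found mostly near stop codons and in long exons, in a context with GGAC at its core. Ribosomal protein genes have many processed pseudogenes and several close paralogs, so reads may be split between copies, and levels of single members are uncertain to that extent.

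The windows that follow show the sequence around annotated starts in the RefSeq annotation of Sscrofa11.1. They were chosen among members that have the tract and whose levels are described further on. Each runs from 15 bases before the start to the 15th base of the transcript, 5' to 3', with the C at the start and the pyrimidines after it in capitals.
RPL10, chrX:124927234-124927263 (plus strand): caggcgtgggagcgcCTCTTTTCCTTCggc
RPL23, chr12:23279950-23279979 (plus strand): ctttgttcttacttcCTTTTCgtccttgtc
RPLP2, chr2:507876-507905 (plus strand): cccccgcgccggcgtCTTCCTTTCTgtccc
RPLP0, chr14:40223929-40223958 (minus strand): cggcgtacagccctcCTCTCgccaggcgtc
RPL7, chr4:62602415-62602444 (plus strand): cgcatgcgctaacttCCTCTTTCCCggctg
RPL38, chr12:6889880-6889909 (minus strand): cggaagcggaagtccCTTCCTTTTCCgttc
RPL3L, chr3:40005033-40005062 (plus strand): cctgcggctcaacagCCCTCTgctgaccgc
A C at the annotated start followed by at least 4 letters C or T, read on the transcript strand only, was present in 11 of the 50 members (22.0%) and in 17 of all 82 RefSeq members (20.7%). The share was 2.05% among 880 genes of similar TPM and 2.87% among the other 19451 coding genes with such a window. When the C was allowed up to 5 bases either side of the annotated start, the shares were 34.0% of the 50 members, 17.4% of genes of similar TPM and 18.1% of the other coding genes. Annotated starts are often a few bases off, so a member without the letters may still begin with a tract. RPL3L carries a short tract of 6 pyrimidines, and RPL10 carries 12.

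GGAC was then located inside the peaks of members. The windows that follow hold the GGAC, in capitals, of some members with peaks in at least 4 muscle lists, read along the RefSeq transcript on Sscrofa11.1.
RPL4, chr1:164476304-164476333 (minus strand): agtcaaatcacttGGACagctaattttgaa
RPL7L1, chr7:37947139-37947168 (plus strand): gaaaaacagcaaaGGACtcattccatggag
RPL28, chr6:59559253-59559282 (plus strand): gtgaagaggaagcGGACccgccccaccaag
RPL29, chr13:34119607-34119636 (minus strand): tgtgaggacagaaGGACtggtgtgatccct
RPL23A, chr12:44957899-44957928 (plus strand): aaaaagaagatccGGACgtcacccaccttc
RPL10, chrX:124929693-124929722 (plus strand): accgcggccccctGGACaaatggcgggccc
The A of this GGAC lies in the 3' UTR of RPL4, RPL7L1 and RPL29, at 40, 236 and 33 bases past the stop codon. In RPL28, RPL23A and RPL10 it lies in the coding sequence. The GGAC of RPL10 was inside the peaks of 2 of its 5 lists. The GGAC shown for RPL29 was inside the peaks of 5 of its 7 lists, without E33 and E50. That of RPL23A was inside the peaks of 4 of its 6. RPS24 and RPS3 also had peaks in at least 4 muscle lists, and no such window was obtained for them. GGAC is common in transcripts of any kind, so that its presence in a peak is a description and no proof of a methylated site.

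Sequencing depth is unknown, since TPM sum to the same total in every library, so no counting intervals are given for expression. The 2 genes of highest mean TPM took 37.8% to 86.8% of all TPM. Values were therefore scaled by median-ratio factors between libraries, and as-deposited values are printed beside them. E40 replicate 2 and E50 replicate 3 stood apart with factors of 0.467 and 0.305 against 0.582 to 2.01 in the other 16. No pair of libraries held identical values. The muscle genes MYOG, MYOD1, DES, ACTA1, CKM, MYH3, MYH8 and TNNT3 were all present, with a summed scaled TPM of 3308 to 3873 at E33 and 13902 to 19556 at E95.

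Ribosomal protein transcripts were among the most abundant of the muscle. The median member lay between the 98.4th and the 98.7th percentile of the 13334 genes tested in every library, E33 to E95. Mean TPM over the 18 libraries had a median of 251 over the 48 members and quartiles of 108 and 468, against a median of 6.23 over all genes tested. Over 100 TPM were 36 of 48 members and 3.12% of all genes tested. The median was 251 TPM for both the 24 large subunit and the 24 small subunit members.

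Levels of single members spanned a wide range in TPM, which is per transcript length. RPS15, a protein of the head of the small subunit, was highest with a mean of 1923 TPM and 697 to 3770.4 over the libraries. RPLP2, an acidic protein of the stalk that recruits elongation factors, had a mean of 1362 TPM and a range of 472 to 2547. Scaled TPM of RPS15 was 1534, 1723 and 1998 at E33, 1402, 1754 and 1217 at E40, 1886, 1442 and 2281 at E50, 1631, 1881 and 1639 at E60, 1833, 1667 and 1999 at E70 and 2369, 2786 and 1485 at E95, with the 2 lowest libraries at E40. E95 replicates 1 and 2 were the highest. The ranges of RPS15 and RPLP2 overlap, so their order is not separated by the spread over libraries. At the low end were RPL3L with a mean of 4.53 TPM, RPS27L with 7.69 and RPS15A with 18.3. Of these, RPL3L and RPS27L are paralogs of other members, while RPS15A is a core protein of the small subunit, with scaled TPM of 17, 14.2 and 10.8 at E33, 20.5, 13.2 and 23.2 at E40, 19.7, 23.4 and 11.5 at E50, 17.4, 12.2 and 10.6 at E60, 18, 15 and 13.8 at E70 and 22.5, 18.1 and 16.3 at E95. The paralogs RPL26L1 and RPL7L1 followed at 19.5 and 20.8 TPM, so 4 of the 5 lowest members that passed the filter carry an L or L1 in their name.

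The members' combined share of TPM depended on the denominator. As deposited, they held 2.38% ± 0.662 of TPM at E33 and 1.39% ± 0.0651 at E95 (SD, n = 3 each). The lowest shares were 0.665% in E40 replicate 2 and 0.532% in E50 replicate 3. With the 2 most abundant genes left out of the total, the share was 4.42% ± 0.266 at E33 and 4.04% ± 0.509 at E95, and 3.45% to 4.61% over all 18 libraries. On that denominator E40 replicate 2 and E50 replicate 3 lay inside the range of the others, at 3.87% and 4.03%. E95 replicate 3 was the lowest of all.

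**Figure D1:**
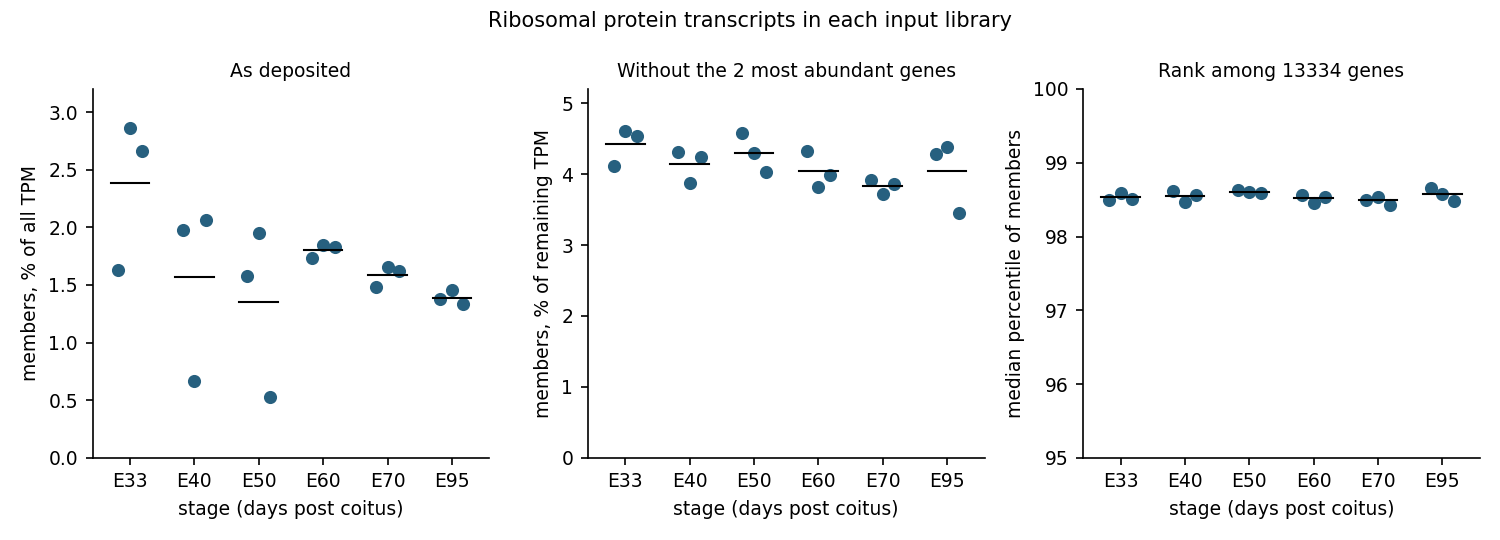
Share of the 50 ribosomal protein genes in all TPM (left), in TPM without the 2 most abundant genes (middle), and median percentile of the 48 members tested (right), with a point per input library and a line for the stage mean. The left panel shows E40 replicate 2 and E50 replicate 3 at 0.665% and 0.532%; in the right panel every library lies between 98.4 and 98.7.

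Between E33 and E95, on scaled values, most members were higher at the later stage. With limma on log2(scaled TPM + 1) and Benjamini-Hochberg adjustment over 13334 genes, 27 of 48 members rose and 2 fell, beside 22.8% and 23.8% of all genes tested. The median log2 change was 0.55 over the members and -0.0045 over all genes tested. Of the members that rose, 13 were large subunit and 14 small subunit genes. Both that fell, RPL3 and RPL26L1, were large subunit genes. All 3 libraries of E95 lay above all 3 of E33 for 28 members and below them for 2, where 27.2% and 28.2% of all genes tested did so.

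The direction of this shift depended on the scaling. On TPM as deposited, 1 member rose and 6 fell, beside 2.64% and 45.8% of all genes. The median change was then -0.71 over the members and -1.02 over all genes. With quantile normalization 11 rose and 8 fell, beside 21.9% and 25.3% of all genes. After leaving the 2 top genes out of the TPM total 3 rose and 10 fell, beside 8.9% and 51.9%. The medians were 0.18 and -0.11 over members and -0.02 and -0.60 over all genes. Under each of these 4 scalings the members' median was above that of all genes, by 0.55, 0.31, 0.20 and 0.50 for the main scaling, as-deposited, quantile and reduced-total values. Whether ribosomal protein transcripts as a whole rose per cell cannot be told from values of this kind.

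To describe members apart from the scaling, each library was centred on the median of its tested members. A change on this scale is relative to the other ribosomal protein genes, and 11 members rose and 5 fell from E33 to E95 (limma, adjusted over all genes), where 11.0% and 40.0% of all genes were called. Those that rose included RPL10, RPL23, RPL3L, RPLP0, RPLP1, RPS16, RPS20, RPS28, RPS3 and RPS7. Those that fell were RPL26L1, RPL28, RPL3, RPL6 and RPL7L1, all of the large subunit. The median change on this scale was 0.18 over the members, with 32 of 48 above 0, and -0.37 over all genes tested. Changes given as relative to the members are therefore not centred on 0, and the typical member lies slightly above it. RPL3L was called higher, and RPL3 and RPL26L1 lower, on scaled, as-deposited and centred values alike.

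**Figure D2:**
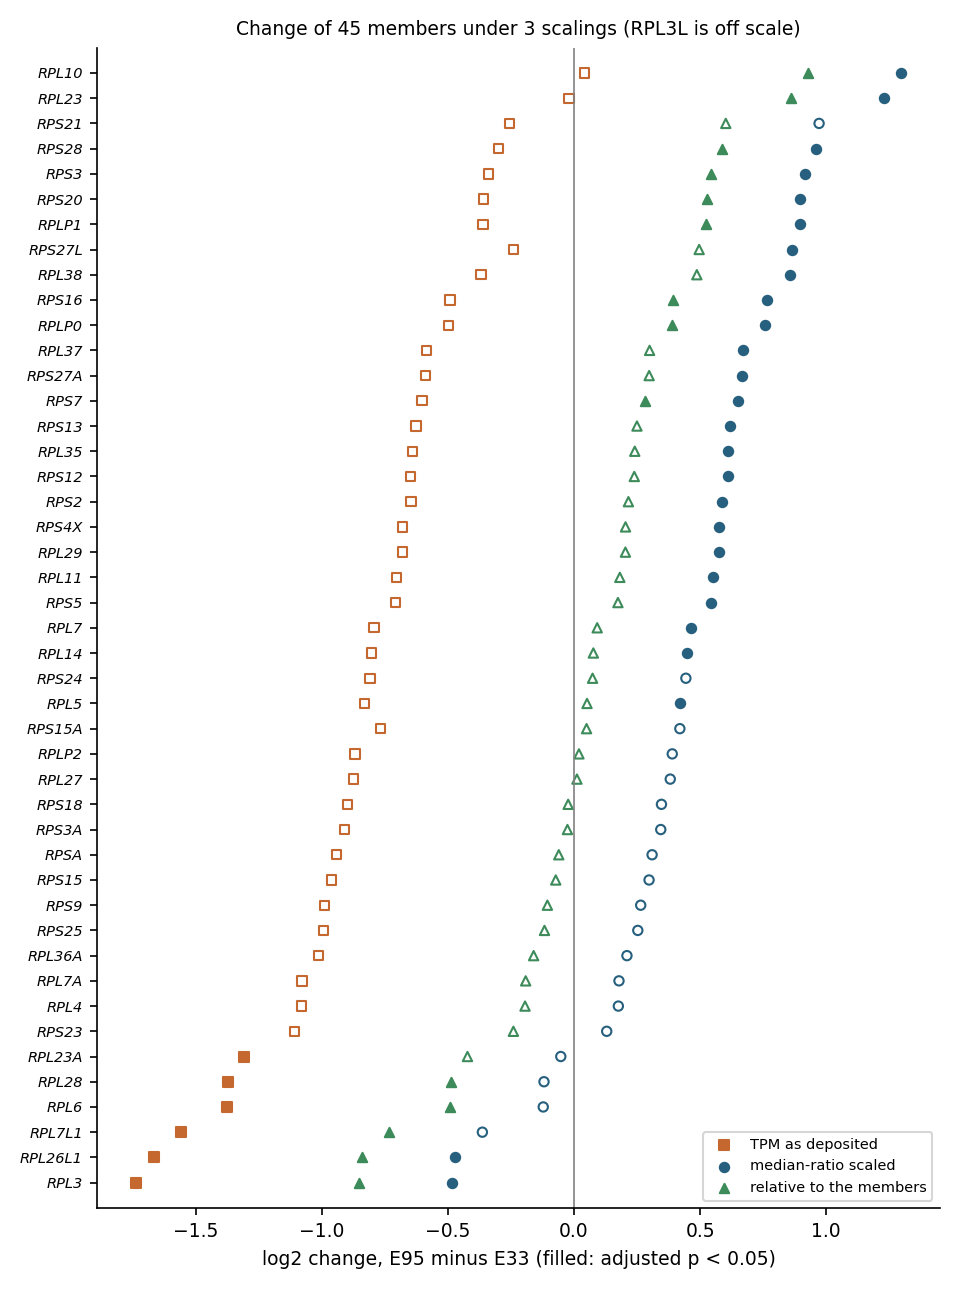
Change from E33 to E95 in log2 units for 45 members, ordered by the change relative to the members, under as-deposited, scaled and member-centred values (filled symbols have an adjusted p under 0.05). The as-deposited values lie left of 0 for all but RPL10, the scaled values right of 0 for 39 of 45. RPL3L, at 4.61 on scaled values, is left out.

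RPL3L changed most. Both it and RPL3 belong near the peptidyl transferase centre of the large subunit, and RPL3L takes the place of RPL3 in mature striated muscle. Its scaled TPM was 0.126, 0 and 0.416 at E33, 0.623, 0.398 and 0.471 at E40, 0.439, 0.614 and 0.578 at E50, 0.947, 1.62 and 0.727 at E60, 4.14, 6.37 and 5.09 at E70 and 28.6, 31.3 and 23.5 at E95. Levels were near 0 through E50 and rose at E70 and again at E95, with no overlap between E60, E70 and E95. As deposited, its TPM was 0.150, 0 and 0.784 at E33 and 18.7, 18.2 and 20.4 at E95. The log2 change from E33 to E95 was 4.61 ± 0.18 (SE) on scaled values (limma, adjusted p = 1.38e-10) and 3.98 ± 0.34 as deposited (adjusted p = 1.29e-07). On scaled values it was the only member called between E60 and E70, with a change of 1.57 ± 0.18 (limma, adjusted p = 2.81e-04), a call lost as deposited (adjusted p = 0.283). The change from E70 to E95 was 2.22 ± 0.18 (adjusted p = 4.01e-06). The pseudocount of 1 understates these changes, since levels at E33 were under 1.

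RPL3 moved the other way. Its scaled TPM was 230.4, 254 and 279 at E33, 219, 291 and 205 at E40, 235, 220.0 and 299 at E50, 204, 248 and 237 at E60, 188, 185 and 203 at E70 and 185, 227 and 141 at E95. All 3 libraries at E95 lay below all 3 at E33, though E95 replicate 2, at 227, came close to E33 replicate 1. The change was -0.48 ± 0.18 on scaled values (limma, adjusted p = 0.0368), -1.74 ± 0.46 as deposited (adjusted p = 0.0059) and -0.85 ± 0.15 relative to the members (adjusted p = 2.32e-04). On scaled values the call was lost without E33 replicate 2 (adjusted p = 0.071), E33 replicate 3 (0.113), E95 replicate 1 (0.068) or E95 replicate 3 (0.167), where the change was -0.31. RPL3L as a share of RPL3 and RPL3L together, which no scaling between libraries touches, was 0.0547%, 0% and 0.149% at E33. It was 2.16%, 3.34% and 2.44% at E70 and 13.4%, 12.1% and 14.2% at E95. RPL3 thus remained the larger part of the pair at every stage. RPL3L lies at chr3:40005048-40016702 on the plus strand of Sscrofa11.1, next to and on the same strand as RPS2 (chr3:39996179-40003110), and RPL3 at chr5:8922697-8929768 on the plus strand.

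RPL10 and RPL23 were the core proteins with the largest rises on scaled values, and neither was called on TPM as deposited. RPL10 joins the large subunit late in its assembly and sits near the tRNA sites. Its scaled TPM was 439.6, 461 and 456 at E33, 522, 482 and 463 at E40, 680.4, 655 and 695 at E50, 705, 644 and 609 at E60, 718, 707 and 762 at E70 and 1171, 1440.1 and 820.0 at E95. The E33 and E95 libraries did not overlap, and the 3 E50 libraries lay above all of E33 and E40. The change was 1.30 ± 0.15 on scaled values (limma, adjusted p = 7.03e-06) and 0.93 ± 0.10 relative to the members (adjusted p = 1.83e-06), but 0.04 ± 0.50 as deposited (adjusted p = 0.949). As a share of the members' summed TPM, RPL10 held 3.22% to 3.24% at E33, 3.99% to 4.19% at E50 and 5.36% to 5.74% at E95.

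RPL23, a protein of the subunit interface that binds the assembly factor eIF6, had scaled TPM of 89.4, 117 and 101 at E33, 156, 118 and 135 at E40, 157, 169.8 and 157 at E50, 149, 93.1 and 93.9 at E60, 167, 131 and 124 at E70 and 270.3, 264 and 197 at E95. E60 replicates 2 and 3 lay within the range of E33, while all E95 libraries lay above all earlier ones. The change from E33 was 1.23 ± 0.19 on scaled values (limma, adjusted p = 1.00e-04) and 0.86 ± 0.17 relative to the members (adjusted p = 8.05e-04), and -0.02 ± 0.55 as deposited (adjusted p = 0.982).

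RPS28, near the mRNA exit of the small subunit, and RPS3, at its mRNA entry, were next in size among the members called higher. RPS28 had scaled TPM of 629, 594 and 558 at E33, 719.9, 555 and 642 at E40, 898, 781 and 836 at E50, 639.7, 561 and 648 at E60, 740.4, 738 and 783 at E70 and 1221, 1485 and 844 at E95. RPS3 had 183, 181 and 177 at E33, 221, 157 and 186 at E40, 246, 208 and 257 at E50, 205, 179 and 187 at E60, 207, 233 and 216 at E70 and 345, 463 and 247 at E95. For both genes E95 lay above E33 in every library, and E95 replicate 3 overlapped the stages between. The changes were 0.96 ± 0.17 and 0.91 ± 0.18 on scaled values (limma, adjusted p = 2.66e-04 and 8.53e-04), and -0.30 ± 0.51 and -0.34 ± 0.52 as deposited (adjusted p = 0.619 and 0.576).

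**Figure D3:**
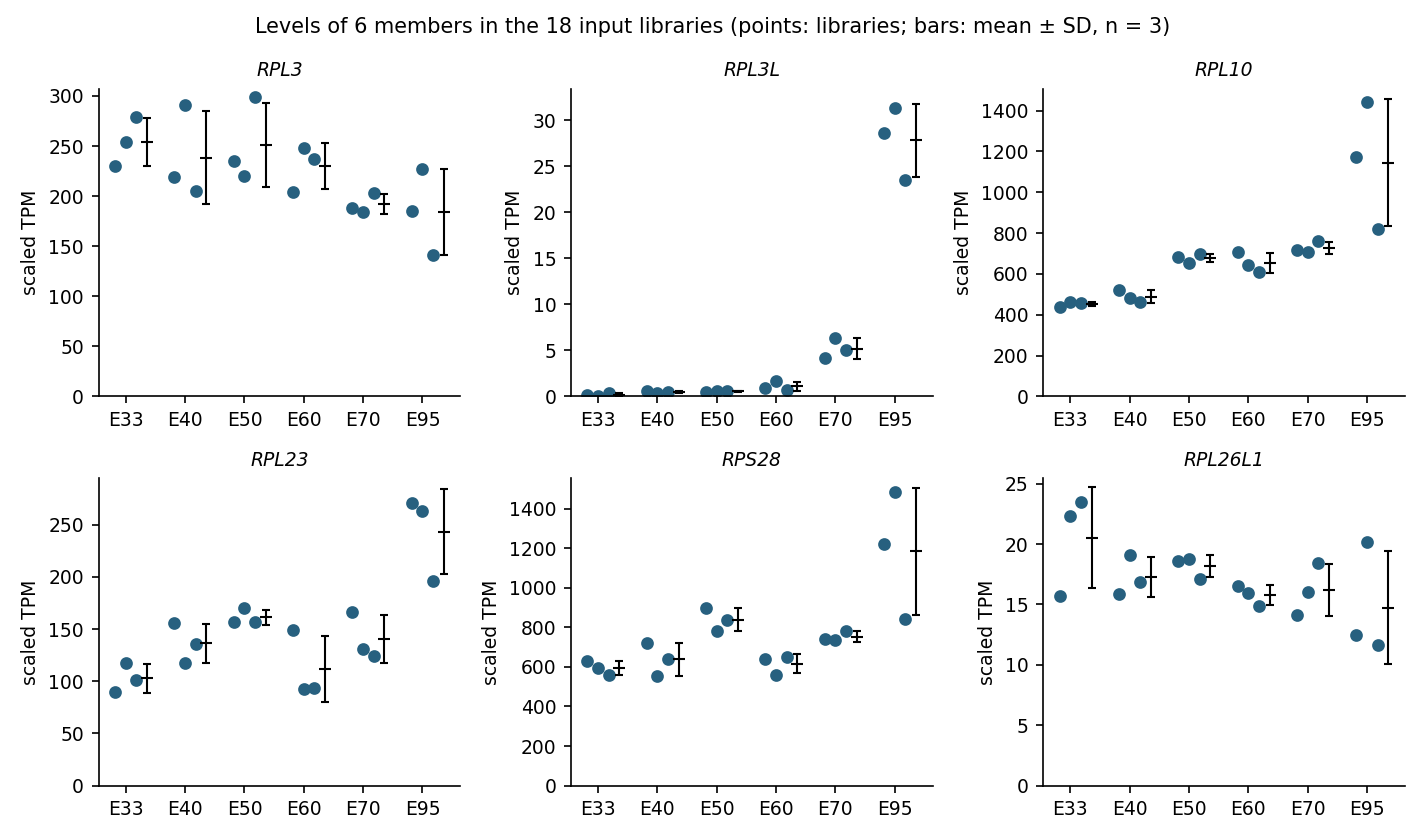
Scaled TPM of 6 members in every input library by stage, on linear axes from 0, with the mean and SD of 3 libraries beside the points. RPL3L is near 0 through E50 and at 23.5 to 31.3 at E95, while RPL3 is at 141 to 227 there; for RPL10, RPL23 and RPS28 the E95 libraries lie above those of E33. As deposited, the changes of RPL23 and RPS28 turn to -0.02 and -0.30 in log2 units.

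RPL26L1 was the other member called lower. It encodes a near-identical copy of RPL26, so its reads are the more uncertain. Its scaled TPM was 15.7, 22.3 and 23.5 at E33, 15.9, 19.1 and 16.9 at E40, 18.6, 18.8 and 17.1 at E50, 16.5, 15.9 and 14.9 at E60, 14.1, 16.1 and 18.4 at E70 and 12.5, 20.1 and 11.6 at E95, and the E33 and E95 libraries overlapped. The change was -0.47 ± 0.18 on scaled values (limma, adjusted p = 0.0447), a call lost in 13 of the 18 fits without 1 library, and -0.84 ± 0.17 relative to the members (adjusted p = 6.89e-04). RPL7L1, named for its likeness to RPL7 and known in ribosome assembly, had 20.3, 23.9 and 18.7 at E33, 17.3, 16.3 and 22.5 at E40, 14.8, 22.2 and 20.1 at E50, 15.7, 16.1 and 15.7 at E60, 20.5, 19.6 and 17.9 at E70 and 15.4, 18.2 and 14.6 at E95. Its change was -0.36 ± 0.15 on scaled values (limma, adjusted p = 0.0577) and -0.73 ± 0.17 relative to the members (adjusted p = 0.002). On scaled values it was called in 5 of the 18 fits without 1 library. RPL7 itself had 269, 335 and 273 at E33, 419, 326 and 446 at E40, 370.2, 453 and 379.5 at E50, 361, 308 and 319.5 at E60, 343, 413 and 399 at E70 and 443, 463 and 315 at E95. Its change was 0.46 ± 0.16 on scaled values (limma, adjusted p = 0.0328), -0.79 ± 0.56 as deposited (adjusted p = 0.226) and 0.09 ± 0.14 relative to the members (adjusted p = 0.608). The scaled call of RPL7 was lost without E33 replicate 1 (limma, adjusted p = 0.106), E33 replicate 3 (0.101), E95 replicate 1 (0.109) or E95 replicate 2 (0.123). RPS27L, a paralog of RPS27 known as a p53 target, had 4.65, 6.05 and 4.23 at E33, 6.77, 5.51 and 7.43 at E40, 6.74, 8.21 and 4.19 at E50, 8.38, 7.69 and 5.33 at E60, 9.72, 6.46 and 7.39 at E70 and 8.78, 13.7 and 7.79 at E95. Its change was 0.87 ± 0.24 on scaled values (limma, adjusted p = 0.00834), -0.24 ± 0.51 as deposited (adjusted p = 0.691) and 0.50 ± 0.23 relative to the members (adjusted p = 0.0862).

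The stalk proteins RPLP0, RPLP1 and RPLP2, which recruit translation factors, differed in the call. RPLP0, the base of the stalk, had scaled TPM of 436, 443 and 441 at E33, 521, 476 and 482 at E40, 655, 529 and 577 at E50, 584, 542 and 520.0 at E60, 620.5, 505 and 574 at E70 and 794, 919 and 566 at E95. RPLP1 had 291, 249 and 247 at E33, 279, 247 and 222 at E40, 359, 282 and 326 at E50, 341, 227 and 235 at E60, 369.6, 298 and 309 at E70 and 521, 601 and 369 at E95. RPLP2 had 1426, 1154 and 1349.7 at E33, 933, 1394 and 739.6 at E40, 1263, 994 and 1546 at E50, 1026, 1289.8 and 1213 at E60, 1132, 1268 and 1383 at E70 and 1641, 2372 and 1284 at E95. For RPLP0 and RPLP1 the 2 stages did not overlap, and for RPLP2 they did. Changes on scaled values were 0.76 ± 0.15, 0.90 ± 0.19 and 0.39 ± 0.25 in that order (limma, adjusted p = 7.72e-04, 0.00138 and 0.215), and the differences between the 3 were not tested. As deposited they were -0.50 ± 0.50, -0.36 ± 0.50 and -0.87 ± 0.41. Relative to the members they were 0.39 ± 0.11, 0.53 ± 0.15 and 0.02 ± 0.21. On scaled values the change of RPLP2 was 0.16 without E95 replicate 2 and 0.60 without E95 replicate 3. RPSA, a small subunit protein also known as the laminin receptor, had 131, 116 and 117 at E33, 115, 111 and 117 at E40, 132, 135 and 131 at E50, 122, 71.4 and 85.2 at E60, 112, 120.0 and 98.2 at E70 and 157, 192 and 114 at E95. It was not called, with a change of 0.31 ± 0.19 on scaled values (limma, adjusted p = 0.192) and -0.94 ± 0.52 as deposited. On scaled values it was 0.14 without E95 replicate 2, and 0.51 without E95 replicate 3, where it was called (limma, adjusted p = 0.031).

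Within the window from E33 to E95, few members were called between neighbouring stages. On scaled values limma called 0 of 48 between E33 and E40, where 21.0% of all genes were called, 0 between E40 and E50 (1.54%) and 0 between E50 and E60 (0.817%). At an unadjusted p under 0.05, limma gave 4, 5 and 11 members in these 3 steps, beside 34.7%, 13.9% and 11.9% of all genes. Between E33 and E40, 3 members were called without E40 replicate 2 (24.5% of all genes) and 2 without E95 replicate 3 (21.8%). From E60 to E70, RPL3L was called higher and 0 members lower (1.21% and 0.555% of all genes). From E70 to E95, 10 rose and 0 fell, beside 6.61% and 6.87% of all genes. They included RPL10, RPL23, RPL3L, RPS2, RPS20, RPS27A, RPS28, RPS3 and RPS7. As deposited, RPL3L alone rose and 0 fell in that step (0.075% and 0.21% of all genes). Relative to the members, RPL3L and RPS7 rose and RPL26L1, RPL28, RPL3 and RPL7L1 fell (1.89% and 26.8%).

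The count from E70 to E95 rested on single libraries. Leaving out E95 replicate 3 gave 28 higher, beside 6.83% of all genes. The count was 2 when either E95 replicate 2 or E70 replicate 2 was dropped (4.49% and 4.28% of all genes), 3 when E95 replicate 1 was (5.17%), and 4 when E70 replicate 3 was (4.8%). The median scaled TPM of the members was 307 and 331 in E95 replicates 1 and 2 and 225 in replicate 3, beside 204 to 252 in the 15 libraries of earlier stages. For E95 against E33, leaving out 1 library gave 19 to 35 members higher and 0 to 3 lower, beside 19.5% to 23.3% and 20.6% to 24.4% of all genes. The count lower was 0 without E33 replicate 2, E95 replicate 1 or E95 replicate 3.

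Over the 6 stages together, the F test of limma called 23 of 48 members on scaled values, beside 47.5% of all genes tested. It called 1, RPL3L, as deposited (20.1% of all genes) and 15 relative to the members (52.3%). Dropping E95 replicate 1 from the scaled values gave 14 (42.8% of all genes), and dropping E95 replicate 3 gave 33 (46.2%).

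Members also differed in how far they varied between libraries of 1 stage. After centring on the members, the pooled SD within a stage was among the smallest for RPL10, at 0.08 log2 units, and largest for RPS21, at 0.57, RPS18, at 0.42, RPS15A, at 0.36, and RPL38, at 0.32. RPS18 had scaled TPM of 88.1, 42.2 and 40.4 at E60, and RPL38 had 37.5, 14.5 and 19.9 at E60. Replicates 2 and 3 of E60 were below replicate 1 for both genes, and the same holds for the scaled TPM of RPS13, RPS15A, RPS21 and RPS24. RPS21 ranged from 9.19 to 59.3 over the 18 libraries. Across 47 members without RPL3L, the change relative to the members went with a shorter coding sequence (Spearman's rho = -0.39) and a shorter transcript (rho = -0.33). These are correlations across genes of the same 18 libraries, and genes are not independent replicates.

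**Figure D4:**
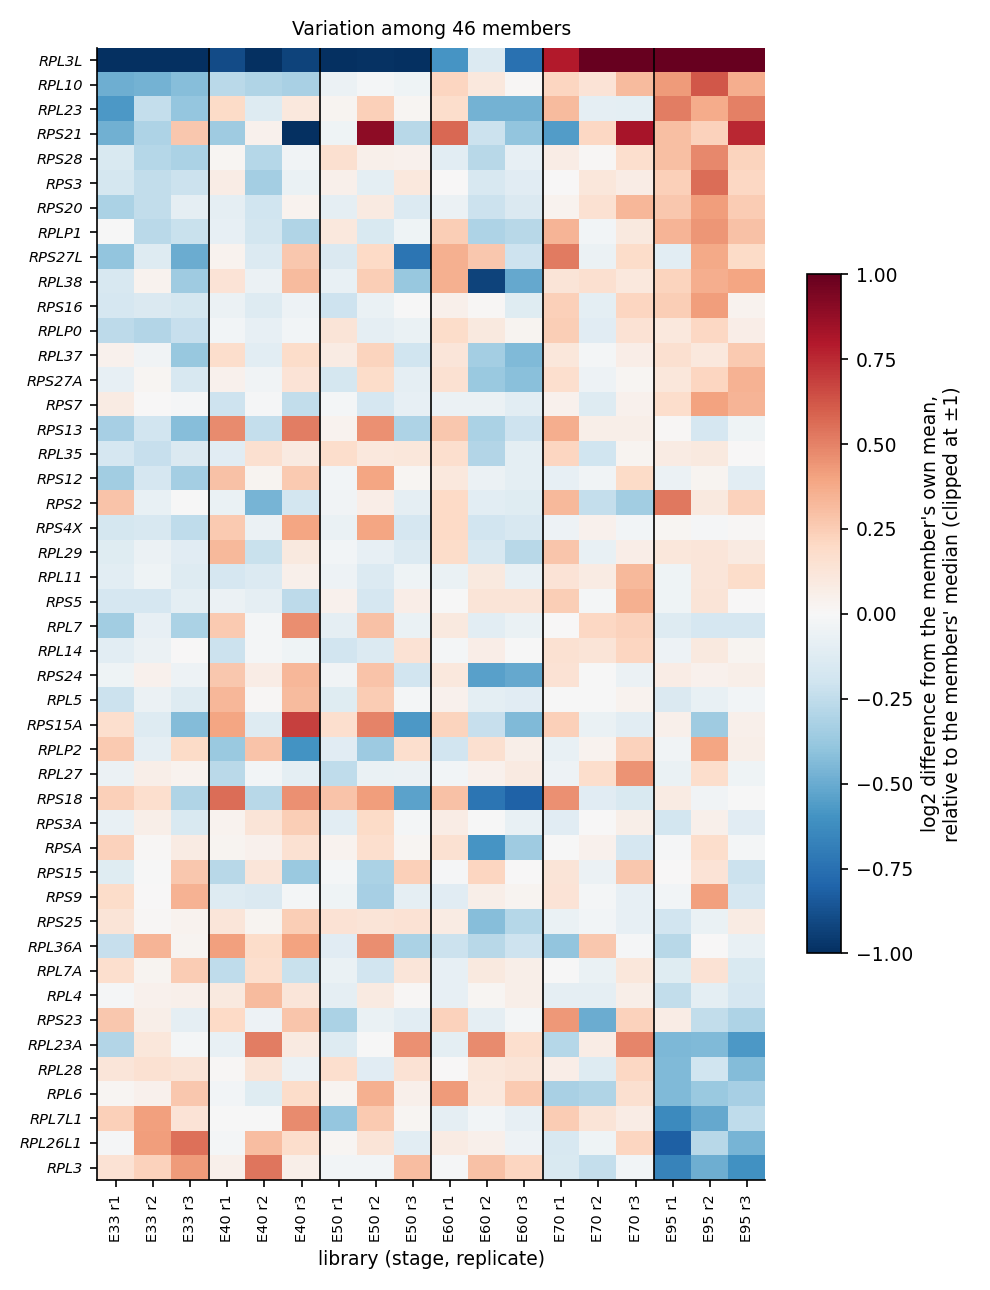
Deviation of each of 46 members from its own mean in every input library, in log2 units relative to the members' median, clipped at 1 in either direction, with members ordered by their change from E33 to E95. RPL3L and RPL10 turn from blue to red from left to right and RPL3, RPL26L1 and RPL7L1 are blue at E95, while RPS18, RPL38 and RPS21 vary between replicates of a stage.

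Other genes of translation were read from the same fit. Of 17 tested genes for translation factors and other known TOP messenger RNAs, 9 rose and 2 fell from E33 to E95 on scaled values, with a median of 0.38, and 1 rose and 5 fell as deposited. For this and the next lists, the shares of all genes called higher and lower were 22.8% and 23.8% on scaled values and 2.64% and 45.8% as deposited. EEF1A2, the elongation factor 1 alpha of muscle and neurons, had a scaled TPM of 2.56 ± 0.773 at E33 and 424 ± 143 at E95 (SD, n = 3), a log2 change of 6.87 ± 0.28 (limma, adjusted p = 2.33e-10). TPT1, a TOP-bearing gene for a tumour protein under translational control, had a change of 1.44 ± 0.15 (adjusted p = 2.07e-06) and of 0.18 as deposited. HNRNPA1 and NPM1, which serve RNA processing and the nucleolus, fell by 0.73 and 0.54 on the log2 scale (adjusted p = 1.52e-04 and 0.00145), with -1.98 and -1.78 as deposited.

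Genes that build the ribosome were not called higher. Of 24 tested genes of ribosome biogenesis, 0 rose (limma, adjusted over all genes) and 6 fell on scaled values, with a median of -0.17, and 17 fell as deposited. At an unadjusted p under 0.05, limma gave 1 higher and 8 lower. The share that fell on scaled values, 25%, is near the 23.8% of all genes. The 6 were NCL, RRP9, POLR1A, BOP1, MYC and DKC1. NCL, the nucleolar protein nucleolin, had a scaled TPM of 607 ± 59.1 at E33 and 388 ± 32.6 at E95, a change of -0.64 ± 0.17 (limma, adjusted p = 0.00736) and of -1.90 as deposited. Of 8 regulators of TOP messenger RNAs, 3 rose and 1 fell on scaled values, and 1 rose and 4 fell as deposited. EIF4EBP1, the repressor of cap-dependent translation that mTOR inactivates, changed by 2.94 ± 0.18 on scaled values (adjusted p = 9.37e-09) and by 1.82 as deposited. RPTOR, a subunit of the mTOR complex, fell by 0.33 on the log2 scale (adjusted p = 0.0112). Of 62 tested mitochondrial ribosomal protein genes, 14 rose and 2 fell on scaled values, with a median of 0.33, and 1 rose and 9 fell as deposited. The share that rose on scaled values, 22.6%, is near the 22.8% of all genes.

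Cell type markers moved over the same stages, and in bulk tissue fewer cells of a type and less RNA per cell cannot be told apart. Of 8 muscle genes, 6 rose and 1 fell on scaled values. All 4 endothelial markers rose, with a summed scaled TPM of 16.2 to 20.9 at E33 and 59.2 to 70.5 at E95. All 3 tested neuron markers, NEFL, STMN2 and TUBB3, fell, with sums over the 4 matched of 104 to 134 and 2.78 to 4.80. Of 4 erythroid genes 2 fell, with sums of 79.2 to 219 and 3.02 to 9.55, and the embryonic globin HBZ made up 129 of the former on average. Of 5 fibroblast genes 3 rose and 2 fell, with sums of 2761 to 3614 and 5617 to 8662. Of 3 tested leukocyte genes 2 rose, with sums over the 4 listed of 29.5 to 36.6 and 37.5 to 59.9. All 3 matched genes of dividing cells, TOP2A, CDK1 and CCNB1, fell, with sums of 38.4 to 49.8 and 13.6 to 16.5. As deposited, the calls higher and lower were 5 and 2 for muscle, 0 and 0 for endothelium, 0 and 3 for neurons, 0 and 2 for erythroid cells, 0 and 2 for fibroblasts, 0 and 0 for leukocytes and 0 and 3 for dividing cells. The part of these cell types in the members' changes was not tested.

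m6A peaks were found on a smaller share of ribosomal protein genes than of genes at a similar level. The 6 muscle lists, from E33 to E95, held a peak on 14, 5, 9, 7, 9 and 10 of the 50 members. Among the 48 tested, that is 29.2%, 10.4%, 18.8%, 14.6%, 18.8% and 20.8%. The shares of all genes tested were 34.8%, 22.5%, 30.4%, 31.4%, 34.4% and 33.7%. Genes of similar TPM, between the 10th and 90th percentile of the members in that stage, had a peak in 63.9%, 49.1%, 57.7%, 58.6%, 61.8% and 60.4% of cases. The 95% Wilson interval of the members' share reached at most 43.2% (E33), below the interval of the genes of similar TPM at each of the 6 stages. These intervals cover counting error over genes only, and each stage has 1 list and no replicate.

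In PK15 cells the polyA list held a peak on 12 members (25.0% of those tested) and the rRNA-depleted list on 16 (33.3%). Of the 12 in the polyA list, 7 had a peak that overlapped RefSeq exons of the gene. All genes tested gave 57.1% and 37.1%, and genes of similar TPM 61.4% and 50.5%. The TPM used for PK15 was the mean over the muscle libraries, so similar level is only approximate there. When genes were also required to have a transcript as long as the members (440 to 1433 bases), the shares of genes of similar TPM were 50.3%, 31.8%, 46.2%, 47%, 52.2% and 53.3% in muscle, E33 to E95. They were 60.3% and 49.7% in PK15. The members stayed below these shares in each of the 8 lists. Overlap with RefSeq exons brings in the 26 members without a paired identifier and the 6 absent from the expression files. By this overlap 21, 8, 14, 13, 16 and 16 of 82 members had a peak in muscle and 11 and 22 in PK15. Some of these peaks are named for another gene in the lists. They are FLT3LG on RPL13A exons (E33, E40, E50 and E70) and HSD11B1L on RPL36 exons (E40, E50, E60 and E95).

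**Figure D5:**
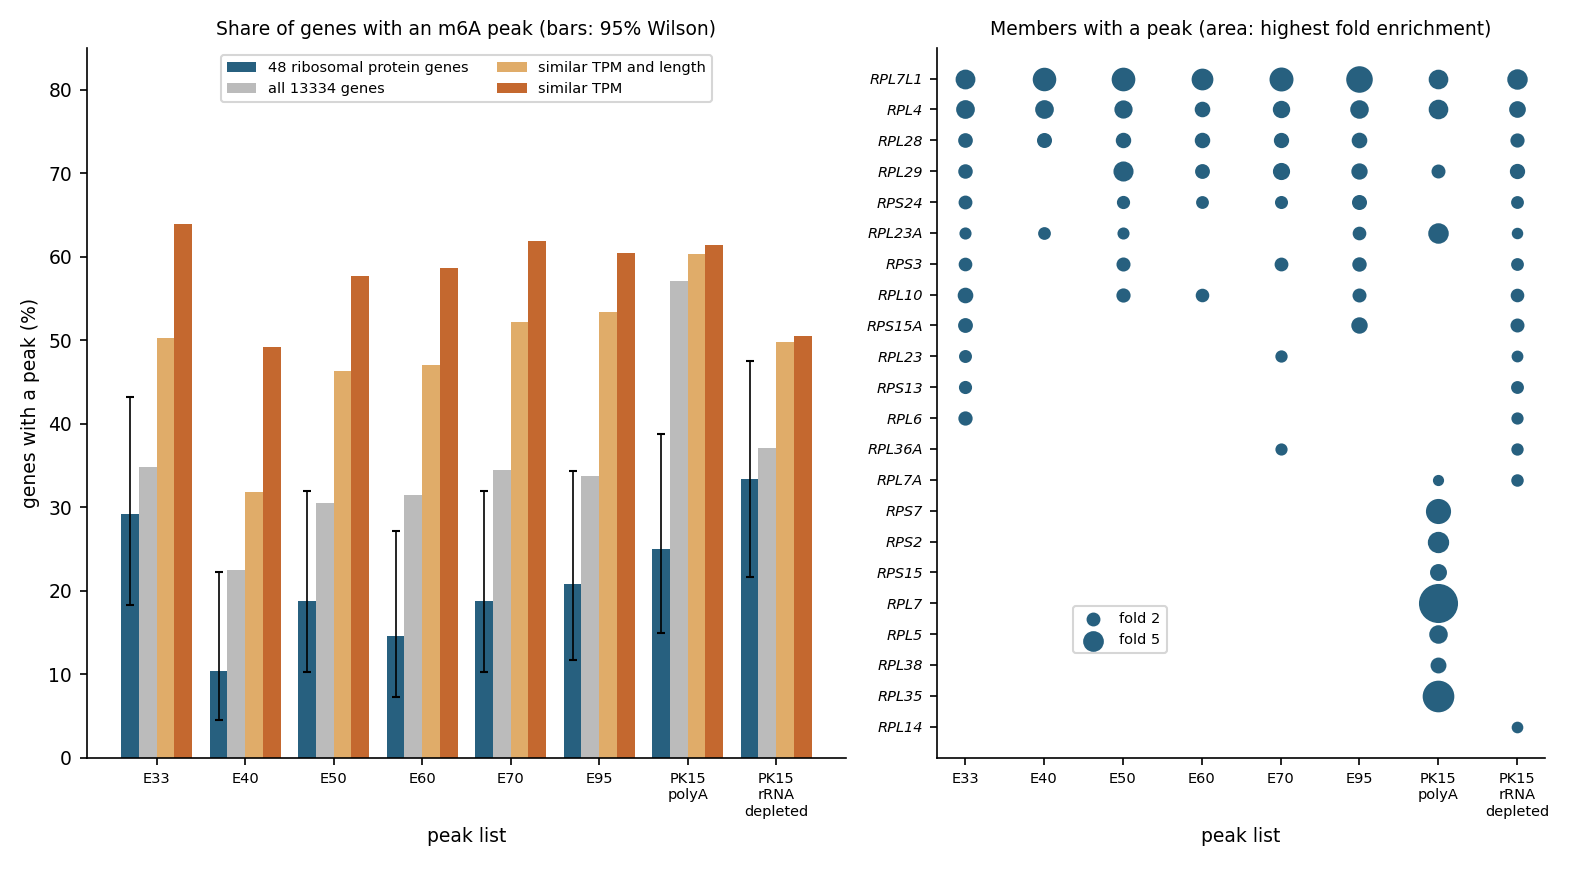
Left, share of genes with a peak in each list for the 48 members (95% Wilson intervals), all 13334 genes tested, and genes of similar TPM with or without similar transcript length. Right, 22 members with a peak, with the area of a point in proportion to the highest fold enrichment in that list. The members' bars are the lowest of each group of 4, from 10.4% at E40 to 33.3% in rRNA-depleted PK15. At E33, E50, E95 and in rRNA-depleted PK15 the share of all genes lies inside the members' interval. RPL4 and RPL7L1 have a point in all 8 lists.

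The peaks that members did have were low in fold enrichment beside all peaks of the same list. Fold enrichment is a value per peak given by the authors. No median fold was taken over peaks on genes of similar TPM. From E33 to E95 its median over member peaks was 1.99, 2.38, 2.26, 2.34, 1.98 and 2.53. Over all peaks of those lists it was 3.51, 4.23, 4.88, 4.06, 4.22 and 4.42. Peaks above their list's median fold fell on 2 members at E33 and on 1 member at each later stage. In PK15 the median was 4.43 against 7.41 in the polyA list and 1.67 against 3.92 in the rRNA-depleted list. The polyA median includes peaks outside the exons of the chosen RefSeq transcripts. They are those of RPL7 (19.7), RPL35 (12.6), RPS7 (7.65), RPL23A (4.89) and RPL5 (3.89).

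Some members carried a peak at every stage. In muscle 15 members had a peak at any stage, 4 in all 6 lists, RPL4, RPL28 and RPL7L1 among them, and 4 in 1 list. Among the 50 members in the expression files, RPL7L1 had the highest fold enrichment at every stage. Its folds were 4.52, 6.63, 6.71, 5.58, 6.90 and 8.62 from E33 to E95, and 4.44 and 4.86 in polyA and rRNA-depleted PK15. A peak on exons of RPL13A, a gene counted only by RefSeq overlap, had a fold of 15.4 at E60. RPL4, which lines the exit tunnel of the large subunit, had 3.98, 3.96, 3.75, 2.62, 3.36 and 3.90 in muscle and 4.42 and 3.07 in PK15. RPL28 had 2.28, 2.41, 2.56, 2.58, 2.50 and 2.64, where the higher value is taken if a gene has several peaks. Fold enrichment shows no order of stages here, as each is a single value.

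RPL29 and RPS24 had a peak at 5 stages, all but E40. RPL23A was in the lists of E33, E40, E50 and E95, RPL10 in those of E33, E50, E60 and E95, and RPS3 in those of E33, E50, E70 and E95. RPS15A was in the lists of E33 and E95 and RPL23 in those of E33 and E70. RPL6 and RPS13 had a peak at E33 only among the muscle lists, and RPL36A at E70 only. RPL3 and RPL3L, which changed in opposite directions in expression, had no peak in any of the 8 lists. In PK15 but in no muscle list were RPL14, RPL35, RPL38, RPL5, RPL7, RPL7A, RPS15, RPS2 and RPS7. The highest folds among them, 19.7 for RPL7, 12.6 for RPL35 and 7.65 for RPS7, all in the polyA list, belong to peaks outside the exons of the RefSeq transcripts.

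Member peaks lay mostly in coding sequence close to the stop codon. Of 86 peaks in the 8 lists, 51 had their midpoint in the coding sequence, 23 in the 3' UTR and 5 in the 5' UTR, and 7 lay outside the exons of the chosen transcript. All 86 were on the strand of the RefSeq gene. The midpoints of 49 were within 200 bases of the stop codon. RPL4 peaks covered 271 or 301 bases around its stop, and include the GGAC window shown for it. RPL7L1 peaks had their midpoints 287 to 332 bases past its stop in a 3' UTR of 1340 bases, while the midpoints of RPL28 lay 31 to 47.5 bases before its stop. RPS15A peaks were placed in the 5' UTR, but only 106 of their 180 bases lay on the chosen transcript, with the rest upstream of its start. The RPS2 peak was placed in an annotated 5' UTR of 4985 bases. Both placements depend on the annotation.

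Transcripts of members were shorter by their medians than those of other genes, in parts where m6A is known to gather. The median length of the chosen RefSeq transcript was 760 bases for the 50 members and 2644.5 for 880 genes of similar TPM. The 3' UTR had medians of 53 and 603.5 bases, the last exon 146 and 846.5, and the longest internal exon 155.5 and 211.5. An internal exon of over 200 bases was present in 22.0% of members and 54.4% of genes of similar TPM. GGAC occurred 3.64 times per 1000 bases in members and 5.23 in genes of similar TPM, with no overlap between occurrences possible, and its reverse complement GTCC 3.58 and 3.84 times. At least 1 GGAC was in 98.0% of members and 99.5% of genes of similar TPM.

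Among the members the medians of these features were close for those with and without a peak, and no test was run. The 15 with a peak in muscle had a median length of 807 bases and a median 3' UTR of 54, and the other 35 had 749 and 52. GGAC occurred 3.49 and 3.70 times per 1000 bases in the 2 groups. Among the 15, RPL7L1 had the longest transcript, at 2387 bases, the longest 3' UTR, at 1340, and the highest fold in muscle. A link between these was not tested. RPS25, RPS29 and RPS4X also have a 3' UTR of 890, 1335 and 675 bases in RefSeq and had no peak in any list, RPS29 being listed at 0 TPM.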

How the data were processed

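RNA of longissimus dorsi and PK15 cells was sequenced before and after m6A immunoprecipitation. Reads were trimmed with Trimmomatic and aligned to Sscrofa11.1 with HISAT2, per the submitters' processing notes. The deposited TPM per gene came from a quantifier and annotation not given in the sources used here. The peak caller and any pooling of replicates are likewise not given. The deposited peak lists hold a fold enrichment and a p-value per peak from the authors; the p-values were not used to select peaks. From these, TPM of the 18 muscle input libraries were divided by median-ratio factors, and limma 3.58.1 in R 4.3.3 (lmFit, eBayes with trend) was run on log2(scaled TPM + 1) for the 13334 genes that averaged 1 TPM or more, with 1 mean per stage, 12 residual degrees of freedom and Benjamini-Hochberg adjustment over all genes (called under 0.05). Fold changes on this scale understate changes of low genes. All libraries of 3 per stage entered 1 fit.

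Peaks were assigned to the gene their list names. Genes of similar TPM lay between the 10th and 90th percentile of the members, and shares have 95% Wilson intervals. RefSeq transcripts of the same build gave structure and sequence. Members and lists were chosen with earlier results of these data known. Named members were paralogs, those with the largest called changes, those of highest and lowest level, the stalk proteins, RPSA and members with a peak; 2 members are counted but their own values are not reported here. The fit was tested on simulated data. Alternatives changed the scaling, pseudocount, filter, libraries, replicate block, peak threshold, gene assignment and matching.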

Additional observations from a re-analysis of the deposited data

How the results depend on the processing

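Directions and counts of members depended on the scaling between libraries. Members higher and lower at E95 against E33 were 1 and 6 as deposited, 11 and 8 with quantile normalization, 3 and 10 without the 2 most abundant genes in the total, and 11 and 5 when centred on the members. For E95 against E70 they were 1 and 0, 2 and 1, 2 and 2, and 2 and 4 in that order. Calls for E40 against E33 were 1 higher and 1 lower with quantile normalization, 2 lower without the top genes, 2 higher when centred and 1 higher with a pseudocount of 0.1. For E70 against E60, 0 were higher as deposited, with a mean of at least 5 TPM (which left out RPL3L) and when the fit held the libraries of E60 and E70 alone, and 1 was lower without the top genes. The F test gave 1 as deposited, 12 without the top genes and 15 when centred. With only the libraries of the stages compared, 1 was higher for E95 against E70 and 0 lower for E95 against E33 (21 higher); without a filter 1 was lower. Without both E40 replicate 2 and E50 replicate 3, 2 were higher at E40 against E33 and 1 lower at E95 against E33. Centring on the members was chosen after seeing the data.

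The log2 change from E33 to E95 turned its sign as deposited in RPL23 -0.020, RPS28 -0.30, RPS3 -0.34, RPL7 -0.79, RPS27L -0.24, RPLP0 -0.50, RPLP1 -0.36, RPLP2 -0.87, RPSA -0.94, RPS15 -0.96, RPS15A -0.77. It did so without the top genes in RPL7 -0.19, RPLP2 -0.27, RPSA -0.34, RPS15 -0.36, RPS15A -0.21, with quantile normalization in RPLP2 -0.27, RPS15 -0.50, and when centred in RPSA -0.060, RPS15 -0.072. Leaving out 1 library gave 19 to 35 higher and 0 to 3 lower for E95 against E33, 14 to 33 by the F test and 2 to 28 higher for E95 against E70. It gave 0 to 3 higher for E40 against E33, 0 to 1 higher for E50 against E40, 0 to 1 lower for E60 against E50 and 1 to 2 higher for E70 against E60. With the replicate number as a block, 28 were higher and 2 lower for E95 against E33, 11 were higher for E95 against E70, and the F test gave 20, with no call of a member named with values lost. Deviations of same-numbered libraries correlated at -0.124 to 0.101 (median 0.0172), and 8 of 18 libraries correlated best with their own number, so the numbers were not taken as pairs.

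Peaks above the median fold of their list fell on 2, 1, 1, 1, 1 and 1 members from E33 to E95 and on 3 and 1 in polyA and rRNA-depleted PK15. By RefSeq exon overlap 7 members had a peak in polyA PK15. In the order of the 8 lists, the percentage of genes of similar TPM with a peak was 34.4, 27.9, 28.7, 30.4, 31.3, 29, 39.4 and 25.1 for peaks above the median fold. It was 71.3, 54.8, 63.1, 62.6, 66.7, 66.9, 65.8 and 55.8 by RefSeq exon overlap, 52.5, 41.2, 46.6, 53.9, 55.1, 52.8, 47.4 and 40.1 when weighted by bins of TPM, and 50.3, 31.8, 46.2, 47, 52.2, 53.3, 60.3 and 49.7 with similar length. The cause of these shifts was not tested. TPM keep no depth and each list is single, which limits the precision of the levels and shares.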
